A study of Mus musculus with 4 samples.

Results

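Collagen is modified, folded and crosslinked by a small set of enzymes before it can bear load, and 10 of their genes were followed here through the cells of healing and resting bone: P4ha1, P4ha2, P4hb, Plod1, Plod2, Serpinh1, Lox, Loxl2, Loxl3 and Bmp1. They were chosen by name among the 32285 genes of the count matrices, and each matched 1 row. The data are single-cell RNA-Seq counts from 4 libraries, 1 each of fracture callus and trabecular bone from control mice given placebo and from mice given prednisolone, a synthetic glucocorticoid (GC), at 6.25 mg/kg/d. All animals were male C57BL/6J mice, 20 weeks of age, and were sampled at week 2. According to the labels all groups carried slow-release pellets. The results text of the study instead describes pellets for the mice modelled for bone loss and daily injection of prednisolone for those with a fracture. The number of mice behind a library is not given in the sources used here. With 1 library per group there was no replicate error and no test between conditions, so every interval below covers counting error only. Intervals of single genes and shares are at 95%. The bounds beside a median over the 10 genes are the medians of their 10 per-gene bounds.

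Procollagen chains are modified in the endoplasmic reticulum while they are being made. Prolyl 4-hydroxylase, a complex of a catalytic alpha subunit (P4ha1 or P4ha2) with protein disulfide isomerase (P4hb), hydroxylates prolines so that the triple helix is stable at body temperature. Lysyl hydroxylases (Plod1, Plod2) prepare lysines for glycosylation and crosslinking, Plod2 acting mainly on the telopeptides. The chaperone HSP47 (Serpinh1) binds the folded helix and escorts it to the Golgi. Outside the cell, the metalloproteinase Bmp1 cleaves the C-terminal propeptide and also activates lysyl oxidase, and the lysyl oxidases (Lox, Loxl2, Loxl3) oxidize lysines so that fibrils become crosslinked. The prolyl and lysyl hydroxylases need oxygen, iron and 2-oxoglutarate, and genes of both families are known targets of the hypoxia-inducible factor, which binds DNA at a core written ACGTG.

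Promoter sequence was at hand for 5 of the 10 genes, as RefSeq windows of 300 bases on GRCm38.p6 that run from 250 bases before RefSeq's start of the gene to 50 after it. The core ACGTG, searched on both strands, lay in 4 of these 5 windows (P4ha1, P4ha2, P4hb and Serpinh1, but not Plod1), and in 19.6% of all 32851 mouse promoter windows. A copy from each is shown because the hydroxylase genes are set beside the hypoxia response below. Each is read in the direction of the gene, with the core in capitals, as ACGTG or as its reverse complement.
P4ha1, chr10:59323268-59323296, plus strand, the core 16 bases before the start: tgtgacagagcgCACGTagcgagggctgc
P4ha2, chr11:54100834-54100862, plus strand, the core 78 bases before the start: tgtgcatcgcatACGTGcagcgcgtggcg
P4hb, chr11:120573293-120573321, minus strand, the core 56 bases before the start: tccgcccactgcCACGTtcgacggagaat
Serpinh1, chr7:99353394-99353422, minus strand, the core 171 bases before the start: accctgcttttcCACGTccaggaccgcgg
P4ha2 and P4hb each held another copy after the start, at positions 10 and 35. For P4ha2 the RefSeq start lies downstream of the GENCODE start given below, so the stretch shown for it lies inside the GENCODE gene. Neither the full ER stress element nor the full palindromic glucocorticoid response element, searched without mismatch on both strands, was found in the 5 windows. They were in 0.119% and 0.00913% of all windows, so both searches are narrow, and no match says only that these letters are absent from this stretch.

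On GRCm38, with GENCODE M21 annotation, P4ha2 (chr11:54100095-54131665, plus strand) and P4hb (chr11:120560298-120573253, minus) shared chromosome 11, and Loxl2 (chr14:69609068-69695834, plus) and Bmp1 (chr14:70474558-70520234, minus) shared chromosome 14. P4ha1 lay at chr10:59323296-59373304 (plus), Plod1 at chr4:147909753-147936767 (minus), Plod2 at chr9:92542223-92608428 (plus), Serpinh1 at chr7:99345376-99353239 (minus), Loxl3 at chr6:83034173-83052562 (plus) and Lox on the minus strand of chromosome 18. Loxl2 overlapped Gm27177 and Loxl3 overlapped Htra2 on the other strand.

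After filtering, 6714 control and 6890 GC cells of callus and 3832 control and 4604 GC cells of trabecular bone were left, with medians of 3292.5 to 6330 UMIs (unique molecular identifiers, each marking 1 captured RNA molecule). The libraries shared 7 to 10 cell barcodes pairwise. Clusters were named from marker genes with the 10 enzymes left out of the clustering, and a class is called X-like because the names were rebuilt. Levels are UMIs of a gene over all UMIs summed in a class, scaled as counts per 1e6 (CPM), and differences are log2 ratios of GC over control after adding 5 CPM. A gene is called higher or lower when the ratio is at least 1.5-fold and at least 50 UMIs were counted over both libraries. The tested genes set beside these calls are all genes with 50 UMIs, including genes at few CPM. For such genes the added 5 CPM shrinks the ratio, so fewer of them can be called. The shares of tested genes called, and the medians over all tested genes, are therefore not matched to the enzymes' levels. In callus the main skeletal classes were chondrocyte-like cells (2121 control and 2439 GC cells), hypertrophic chondrocyte-like cells (458 and 303), stromal-like cells (144 and 114) and osteoblast- or osteocyte-like cells (90 and 102). In the chondrocyte-like and hypertrophic classes different clusters held most cells of each library. Clusters 3 and 7 led the control chondrocyte-like cells, clusters 1.0, 2.0 and 3 those of GC callus, and cluster 1.0 held 7 control and 711 GC cells. Among hypertrophic chondrocyte-like cells, cluster 2.2 led in control and cluster 2.1 in GC. In 3 of these 4 classes the markers of the class's own name summed highest in both libraries. In the stromal-like cells the summed osteoblast markers, Col1a1 among them, were above the stromal ones (23257 against 13760 CPM in control and 33148 against 17201 CPM in GC). Median depth fell between the libraries from 24555 to 11795 UMIs per chondrocyte-like cell and from 13071 to 11316 per stromal-like cell.

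In callus most UMIs of the enzymes came from skeletal cells. In control callus, skeletal classes held 82.9% of all UMIs and between 92.7% (P4hb) and 97.8% (Plod2) of the UMIs of each enzyme. In GC callus they held 74.9% of all UMIs and between 85.1% (P4hb) and 92.4% (Loxl2) of each enzyme's, with another 6.68% to 10.4% in cells that stayed unnamed. All 10 genes were at least 1.5-fold higher in skeletal than in hematopoietic cells of control callus, where 19.6% of 13827 tested genes were, and the median log2 difference over the 10 was 3.27 (3.05 to 3.50) against -0.14 over all tested genes. The difference was 4.40 for Plod2 (876 against 36.8 CPM), 4.05 for Serpinh1 (1620 against 93.0 CPM) and 3.93 for Loxl2 (266 against 12.8 CPM), and Lox was at 667 against 37.0 CPM. It was 1.54 for P4hb (476 against 160 CPM), whose product also works in general disulfide formation. Free RNA was read from barcodes of 7 to 41 UMIs in control callus, taken as empty droplets. They held 1029 CPM of Serpinh1, 505 CPM of Lox, 378 CPM of Plod2, 323 CPM each of P4ha2 and P4hb, 260 CPM of P4ha1, 162 CPM of Loxl3, 160 CPM of Loxl2, 120 CPM of Bmp1 and 77.0 CPM of Plod1. The hematopoietic classes of control callus lay below these levels for every enzyme, except P4hb in granulocyte-monocyte progenitor- or promyelocyte-like cells. Skeletal classes did so too for part of the set: chondrocyte-like cells for 2 of the 10 (Loxl3 and Bmp1), stromal-like and osteoblast- or osteocyte-like cells for 4 each, and hypertrophic chondrocyte-like cells for 9, Lox being the exception. Loxl3 was below its empty-droplet level in every class. The part of free RNA in these levels was not tested.

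**Figure D1:**
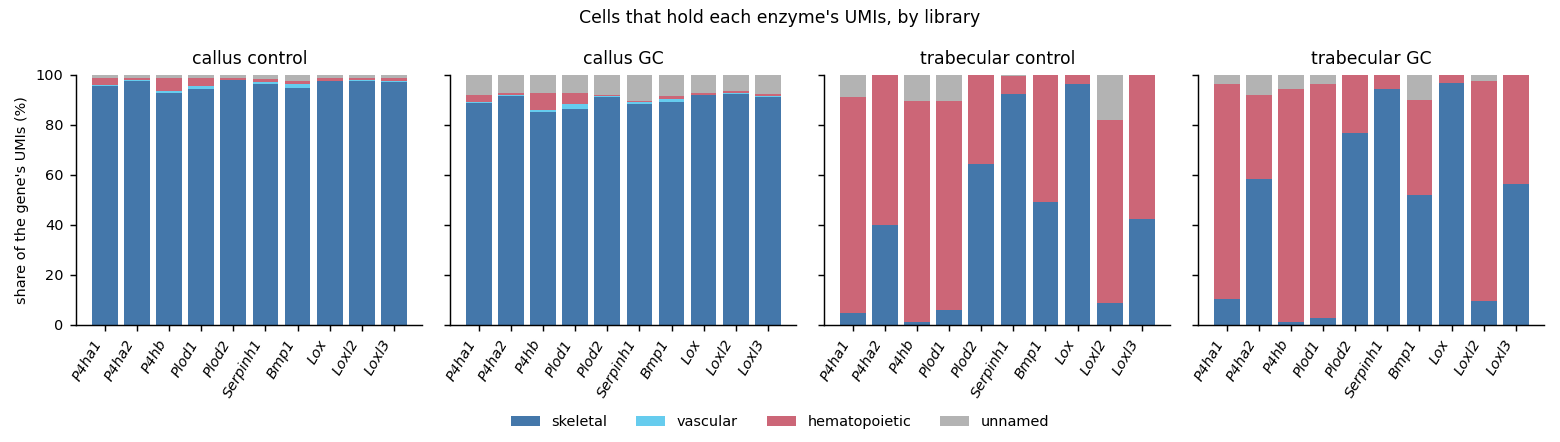
Share (%) of each enzyme's UMIs that came from skeletal, hematopoietic, vascular and unnamed cells, 1 panel per library and 1 stacked bar per gene. In both callus libraries skeletal cells held at least 85.1% of every gene's UMIs, whereas in trabecular bone hematopoietic cells held at least 83.7% of those of P4ha1, P4hb and Plod1 and at most 7.04% of those of Serpinh1 and Lox.

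Within control callus the 10 genes did not share 1 pattern. Chondrocyte-like cells had the highest levels of both catalytic prolyl hydroxylase subunits, P4ha1 at 474 CPM (468 to 480) and P4ha2 at 358 CPM, and also of P4hb (526 CPM), Plod2 (988 CPM), Loxl2 (299 CPM) and Loxl3 (121 CPM). Osteoblast- or osteocyte-like cells were highest for the chaperone Serpinh1, at 2505 CPM (2437 to 2574), and for the propeptide protease Bmp1, at 381 CPM (355 to 409). Stromal-like cells came next for Serpinh1 at 1842 CPM and for Bmp1 at 165 CPM. The interval of each of these leading classes was clear of the next class.

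Lox and Plod1 departed from that order. Lox was at 830 CPM (811 to 850) in hypertrophic chondrocyte-like and 780 CPM (742 to 819) in osteoblast- or osteocyte-like cells, which overlapped, then at 648 CPM in chondrocyte-like and 393 CPM in stromal-like cells. Plod1 was the only one of the 10 to be highest outside the skeleton, at 172 CPM (135 to 217) in endothelial-like cells, although this interval reached that of stromal-like cells (125 CPM, 111 to 140). Endothelial-like cells, whose basement membrane collagen is also processed by these enzymes, had 1462 CPM of Serpinh1 and 256 CPM of P4hb beside 19.1 CPM of Lox. There were 43 such cells in control callus.

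Taken as a class, hypertrophic chondrocyte-like cells, a late stage of the cartilage lineage, stood below the other chondrocyte-like cells for most of the enzymes. In control callus 8 of the 10 genes were at least 1.5-fold lower in them, where 8.5% of 12749 tested genes were. Loxl3 was at 27.7 against 121 CPM (log2 -1.94), Plod2 at 332 against 988 CPM (-1.56), Plod1 at 40.8 against 111 CPM (-1.34) and P4hb at 213 against 526 CPM (-1.29). Lox (0.35) and Bmp1 (-0.05) were the exceptions. The other class was not free of hypertrophic traits: its clusters 1.3, 2.0, 2.3, 7 and 14.1 were led by Col10a1, a hypertrophic marker. Control Plod2 was at 407 and 463 CPM in clusters 2.0 and 2.3, and at 355 and 320 CPM in hypertrophic clusters 2.1 and 2.2. It was at 1319 CPM in chondrocyte-like cluster 3. Compared with chondrocyte-like cells, osteoblast- or osteocyte-like cells had 4.29-fold more Bmp1 (3.97 to 4.63) and 3.11-fold less Loxl2 (96.1 against 299 CPM). P4ha2 (166 against 358 CPM), Plod1 (64.1 against 111 CPM), Plod2 (614 against 988 CPM) and Loxl3 (49.0 against 121 CPM) were called lower there too. P4ha1, P4hb, Serpinh1 and Lox were not called. For that pair of classes 10.5% of 12510 tested genes were called higher and 11.0% lower.

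**Figure D2:**
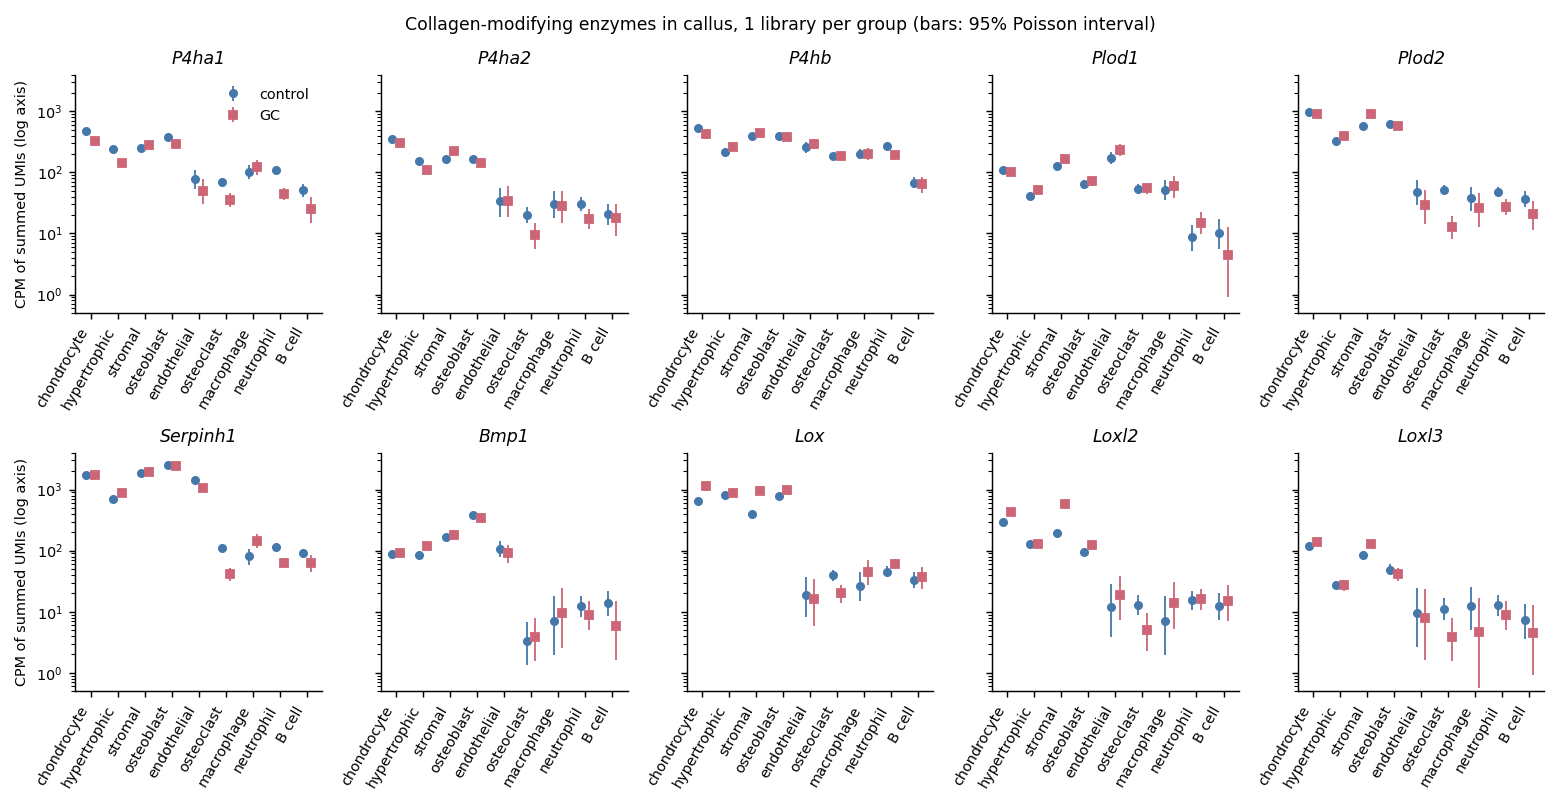
CPM of summed UMIs (log axis) of each enzyme in callus cell classes, 1 panel per gene, with the control and GC library side by side and bars for the 95% Poisson interval. Lox and Loxl2 stand higher in GC than in control stromal-like cells (393 to 938 CPM and 194 to 588 CPM), and Bmp1 peaks in osteoblast- or osteocyte-like cells of both libraries (381 and 343 CPM).

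Under GC the catalytic subunits P4ha1 and P4ha2 were both below control in 3 of the 4 skeletal classes of callus and above it in stromal-like cells. P4ha1 was called lower in 1 of the 4 and P4ha2 in none. P4ha1 was at 474 CPM in control and 322 CPM in GC chondrocyte-like cells (log2 -0.55, -0.58 to -0.52), a 1.47-fold difference just inside the 1.5-fold limit. In hypertrophic chondrocyte-like cells it was called lower, at 242 and 143 CPM (-0.74, -0.87 to -0.61), where 3.88% of 9690 tested genes were called lower, but the median within its clusters was under the limit (-0.46). In osteoblast- or osteocyte-like cells P4ha1 was at 375 and 293 CPM (-0.35, -0.52 to -0.19). Stromal-like cells went the other way, at 249 and 284 CPM (0.18, 0.00 to 0.36).

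P4ha2 differed less. It was at 358 and 305 CPM in chondrocyte-like cells (-0.23), 152 and 109 CPM in hypertrophic ones (-0.47, -0.61 to -0.32), and 166 and 144 CPM in osteoblast- or osteocyte-like cells (-0.20, -0.43 to 0.04). In stromal-like cells it was at 165 CPM in control and 224 CPM in GC (0.44, 0.23 to 0.65, but -0.38 when cells needed at least 500 genes). That setting clustered the cells anew and left 44 control and 39 GC cells in the stromal-like class. The partner subunit P4hb was at 526 and 424 CPM in chondrocyte-like cells (-0.31, with a median of -0.063 within clusters), but at 213 and 263 CPM in hypertrophic ones (0.30). Its stromal values were 388 and 441 CPM (0.18), and in osteoblast- or osteocyte-like cells it stood at 392 and 386 CPM (-0.02). Thus no class had all 3 prolyl 4-hydroxylase genes past the 1.5-fold limit.

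Since chondrocyte-like clusters were filled unequally by the 2 libraries, P4ha1 was also compared cluster by cluster. Clusters needed 15 cells in each library, which kept 14. It was lower in GC in 9 of the 12 with at least 50 UMIs, and 2 of these 9 passed the 1.5-fold limit. The 3 in which it was higher were both stromal-like clusters of that size (0.17 and 0.59, the latter past the limit) and chondrocyte-like cluster 1.2 (0.32). The largest cluster, 3, had 605 CPM in 997 control cells and 466 CPM in 359 GC cells (-0.37). P4ha2 was lower in 7 and higher in 5 of the 12 clusters in which it had 50 UMIs, past the limit in none of the 7 and in 2 of the 5, and its medians within the chondrocyte-like and hypertrophic clusters were -0.12 and -0.089. After every cell had been thinned to 1000 UMIs, 36.0% of control and 30.7% of GC chondrocyte-like cells had a P4ha1 UMI (93.7% and 81.2% unthinned). The share in B cell-like cells, which make no fibrillar collagen, was 4.67% and 3.72%, at median depths of 1929 and 1681 UMIs before thinning.

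**Figure D3:**
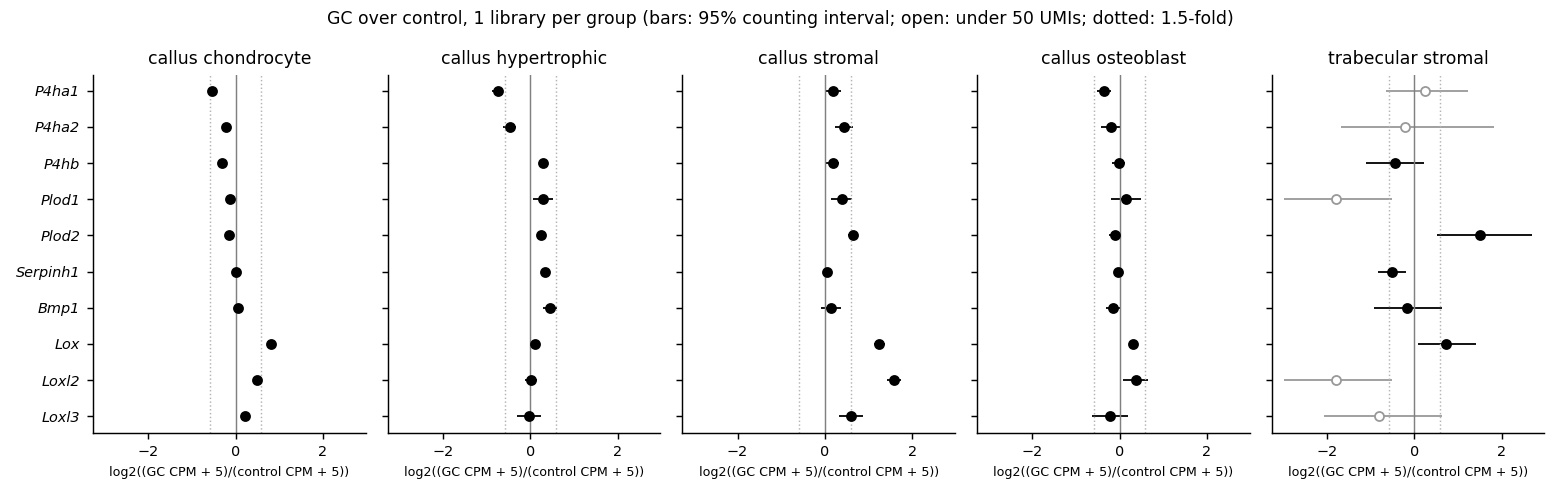
log2 ratio of GC over control (x axis) for each enzyme (y axis), 1 panel per cell class, with bars for the 95% counting interval, open points under 50 UMIs and dotted lines at 1.5-fold. P4ha1 lies left of 0 in chondrocyte-like, hypertrophic and osteoblast- or osteocyte-like cells (-0.55, -0.74 and -0.35), and Lox lies right of 0 in all 4 skeletal classes of callus (0.11 to 1.24), although in osteoblast- or osteocyte-like cells it was at -0.14 after thinning.

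In hematopoietic cells of callus, P4ha1 stood below the 260 CPM of the control empty droplets throughout, the highest control level being 108 CPM. Of 5 comparable hematopoietic classes of callus with 50 UMIs, it was called lower in 4: mature neutrophil-like cells (108 and 44.3 CPM), T cell-like cells (54.8 and 21.3 CPM), B cell-like cells (50.9 and 25.0 CPM) and osteoclast-like cells (68.9 and 35.4 CPM). In these classes 13.1%, 14.1%, 20.1% and 5.79% of tested genes were called lower. C1q macrophage-like cells had 102 and 120 CPM of P4ha1. Serpinh1 was called lower in 4 of 6 classes, those of neutrophil-, T cell-, osteoclast- and NK or innate lymphoid-like cells (116 and 47.9 CPM in the last, with 11.3% of tested genes called lower). It was called higher in C1q macrophage-like cells, at 80.6 and 144 CPM (13.9% of tested genes). Plod2 was called lower in all 3 classes with 50 UMIs, neutrophil-, B cell- and osteoclast-like cells (-1.68 to -0.70). P4ha2 was called lower in 2 of 2, neutrophil- and osteoclast-like cells (-0.80 to -0.68), and Lox in 1 of 4, osteoclast-like cells. The shares of tested genes called lower in these classes are given above. P4hb, Plod1 and Loxl2 were called in none. Beside this, the fibrillar collagens summed to 3643 and 2049 CPM in B cell-like cells. The part of free RNA in these values was not tested, since the GC callus matrix lists only barcodes of at least 500 UMIs and holds no empty droplets. In trabecular bone, whose empty droplets held at most 8.60 CPM of P4ha1, the log2 ratios were -0.27 to -0.08 in the 3 hematopoietic classes with 50 UMIs.

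The lysyl hydroxylases stood nearer to control than P4ha1 in chondrocyte-like cells and farther from it in stromal-like cells. Plod2 was at 988 CPM in control and 892 CPM in GC chondrocyte-like cells (-0.15, -0.17 to -0.13, but 0.048 with cells thinned to 1000 UMIs) and at 614 and 569 CPM in osteoblast- or osteocyte-like cells (-0.11, -0.23 to 0.01). In stromal-like cells it was called higher, at 579 and 906 CPM (0.64, 0.53 to 0.75), where 4.78% of 7306 tested genes were called higher. The call held under 13 of 18 alternative settings, and the lowest value was 0.03. In hypertrophic cells Plod2 was at 332 and 395 CPM (0.25, 0.16 to 0.33). The share of thinned stromal-like cells with a Plod2 UMI was 36.4% (28.5% to 44.8%) in control and 54.4% (44.8% to 63.7%) in GC, against 93.8% and 88.6% unthinned. Plod1, the hydroxylase of helical lysines, was at 111 and 102 CPM in chondrocyte-like cells (-0.13), 40.8 and 50.8 CPM in hypertrophic ones (0.28), and 125 and 164 CPM in stromal-like cells (0.38, 0.14 to 0.62). In osteoblast- or osteocyte-like cells it was at 64.1 and 71.3 CPM (0.14, -0.20 to 0.49). None of these Plod1 differences reached 1.5-fold.

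Serpinh1 and Bmp1 lay close to their control levels in chondrocyte-like, stromal-like and osteoblast- or osteocyte-like cells of callus, and farther above them in hypertrophic ones. Serpinh1 was at 1725 and 1748 CPM in chondrocyte-like cells (0.02, 0.00 to 0.03, and -0.14 to 0.45 over 18 alternative settings), 1842 and 1909 CPM in stromal-like cells (0.05, -0.02 to 0.12), and 2505 and 2454 CPM in osteoblast- or osteocyte-like cells (-0.03, -0.09 to 0.03). Each of these intervals excludes a 1.5-fold difference on counting error. Hypertrophic chondrocyte-like cells had 709 and 890 CPM (0.33, 0.27 to 0.38). Bmp1 was at 88.9 and 92.9 CPM in chondrocyte-like cells (0.06), 165 and 182 CPM in stromal-like cells (0.14), 381 and 343 CPM in osteoblast- or osteocyte-like cells (-0.15), and 85.6 and 118 CPM in hypertrophic ones (0.44, 0.28 to 0.60). Under 18 alternative settings the hypertrophic value of Bmp1 ran from 0.08 to 0.92 and passed the 1.5-fold limit in 4. Single clusters spread more widely than the classes: Serpinh1 ran from -1.71 in hypertrophic cluster 14.0 to 1.15 in chondrocyte-like cluster 14.1. These were the shallowest skeletal clusters compared, at medians of 679 and 989.5 UMIs per cell. In the other compared clusters Serpinh1 ran from -0.48 (cluster 2.0) to 0.32 (cluster 2.2).

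Lox and Loxl2 were the enzymes that stood highest above control in GC stromal-like and chondrocyte-like cells. In stromal-like cells all 3 lysyl oxidase genes were called higher: Loxl2 at 194 and 588 CPM (1.57, 1.41 to 1.74; 3.03-fold), Lox at 393 and 938 CPM (1.24, 1.12 to 1.36; 2.39-fold) and Loxl3 at 83.7 and 129 CPM (0.59, 0.31 to 0.88). With Plod2 that made 4 of the 10 enzymes called higher in this class, where 4.78% of all tested genes were, and the median log2 ratio over all 10 was 0.41 (0.18 to 0.63) against 0.00 over all tested genes. Loxl3 depended on the clustering, being -0.29 at a coarser resolution and -0.42 with each library clustered alone. Loxl2 was at 0.29 when cells needed at least 500 genes and past the limit under the 17 other alternatives, and Lox was past it under all 18. The control stromal-like level of Lox was below the 505 CPM of the empty droplets, and the part of free RNA was not tested.

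Lox was also called higher in chondrocyte-like cells, at 648 CPM (642 to 655) in control and 1136 CPM (1125 to 1148) in GC (0.81, 0.78 to 0.83), where 1.9% of 13396 tested genes were called higher. Loxl2 was at 299 and 424 CPM there (0.50, 0.47 to 0.53) and Loxl3 at 121 and 141 CPM (0.21), both under the 1.5-fold limit. As a median within clusters the Lox difference was 0.43, also under it, but that of Loxl2 was 0.79, past it. Lox passed the limit in 3 of 8 chondrocyte-like clusters and Loxl2 in 4 of the 7 with 50 UMIs. In osteoblast- or osteocyte-like cells Lox was at 780 and 972 CPM (0.32, but -0.14 with cells thinned to 1000 UMIs) and Loxl2 at 96.1 and 125 CPM (0.36, 0.09 to 0.64). Hypertrophic chondrocyte-like cells had 830 and 896 CPM of Lox (0.11, 0.05 to 0.17) and 128 and 129 CPM of Loxl2 (0.01, -0.13 to 0.16). Within the 3 hypertrophic clusters the median was 0.49 for Lox (0.44 to 1.23) and 0.26 for Loxl2 (-0.40 to 0.52). Loxl3 was at 27.7 and 26.9 CPM there (-0.04) and at 49.0 and 41.5 CPM in osteoblast- or osteocyte-like cells (-0.22, -0.63 to 0.20). The highest level of Lox stood in hypertrophic chondrocyte-like cells in control callus and in chondrocyte-like cells in GC callus, and that of Loxl2 moved from chondrocyte-like to stromal-like cells. Different clusters filled these classes in each library. Hypertrophic cluster 2.2 had 964 and 1356 CPM of Lox in 261 control and 40 GC cells. Chondrocyte-like cluster 2.0 had 1008 and 1387 CPM in 59 control and 382 GC cells. The part of cluster composition in this order was not tested.

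Lox stood above control in each of the 14 skeletal clusters of callus with 15 cells in each library, by 0.16 to 1.43, and past the 1.5-fold limit in 6. Loxl2 stood above control in all 12 clusters in which it had 50 UMIs, by 0.11 to 1.74, and past the limit in 6, and below control in hypertrophic cluster 14.0, which had fewer (-0.40). Of 3321 genes with 50 UMIs in at least 12 of these clusters, 4.7% were above control in every one and 4.25% below. The stromal-like cluster 10.0 had 419 and 1139 CPM of Lox in 81 control and 55 GC cells, and cluster 10.1 had 348 and 706 CPM in 55 and 50 cells. Thinned to 1000 UMIs, 41.9% of control and 63.4% of GC chondrocyte-like cells had a Lox UMI, and 25.2% and 47.4% of stromal-like cells did. Unthinned, the shares were 91.8% and 92.9%, and 89.6% and 89.5%. B cell-like cells gave 3.33% and 3.15% (6.48% and 6.14% unthinned), with Lox at 33.2 and 36.8 CPM.

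**Figure D4:**
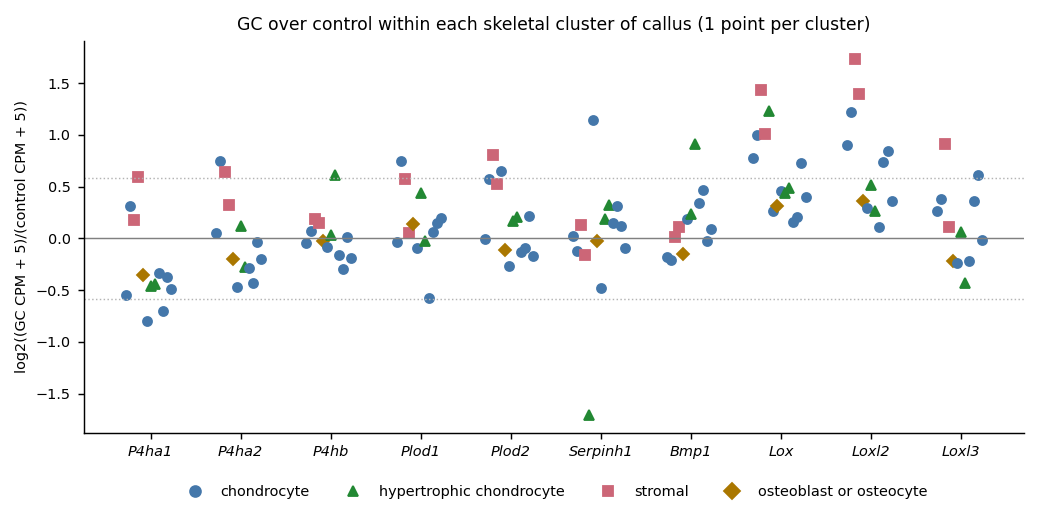
log2 ratio of GC over control (y axis) for each enzyme (x axis) within each skeletal cluster of callus, 1 point per cluster, colored by class. Points of Lox all lie above 0 (0.16 to 1.43), whereas most points of P4ha1 lie below it and those of Serpinh1 spread to both sides (-1.71 to 1.15). The 2 extremes of Serpinh1 are the shallow clusters 14.0 and 14.1.

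Over all 10 enzymes the median log2 ratio was -0.05 in chondrocyte-like cells (-0.08 to -0.02; 0.01 over all tested genes), 0.18 in hypertrophic ones (0.06 to 0.29; 0.06) and -0.07 in osteoblast- or osteocyte-like cells (-0.22 to 0.08; 0.03). In the chondrocyte-like class 1 of the 10 was called, Lox, where 1.9% of all tested genes were called higher and 2.68% lower. In the hypertrophic class 1 of the 10 was called, P4ha1, where 7.17% of all tested genes were called higher and 3.88% lower, so this count was near the background. None was called in osteoblast- or osteocyte-like cells (6.02% of all tested genes higher and 4.65% lower).

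Endothelial-like cells followed neither direction as a whole. P4ha1 was called lower in them, at 79.0 and 50.2 CPM, but its interval included 0 (-0.60, -1.39 to 0.19), and 10.2% of 2988 tested genes were called lower. Serpinh1 was at 1462 and 1050 CPM (-0.48, -0.66 to -0.29) and Plod1 at 172 and 233 CPM (0.42, -0.03 to 0.88). Beside these values the cartilage collagen Col2a1 was at 1582 CPM in control and 312 CPM in GC endothelial-like cells, and the part of free RNA was not tested.

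Other genes of the pathway were read from lists. Of 7 further genes of prolyl hydroxylation, 3 were called lower in GC chondrocyte-like cells (P4ha3, P3h4 and the cyclophilin Ppib, at 1365 and 871 CPM), where 2.68% of all tested genes were, and the list median was -0.51. Their names, like those of other list genes given here beyond the 4 with the largest ratios in a class, were chosen after their values were seen. In stromal-like cells 1 of 7 was called higher, P3h2, which hydroxylates the 3 position of proline (43.3 and 95.5 CPM). There 4.78% of all tested genes were called higher. Neither Plod3 nor the collagen galactosyltransferases of the lysyl list were called in any of the 4 skeletal classes. Of 11 genes of folding and export, among them Fkbp10, Sparc and Mia3, none was called in these classes. The crosslinking enzyme Loxl1 went against its relatives, at 273 and 179 CPM in stromal-like cells (-0.59), where 6.39% of tested genes were called lower. The transglutaminase Tgm2 was called lower in hypertrophic (81.6 and 44.0 CPM) and osteoblast- or osteocyte-like cells (81.1 and 49.6 CPM). In these classes 3.88% and 4.65% of all tested genes were called lower. Among the 7 further propeptide processing genes, Pcolce was called lower in chondrocyte-like cells (124 and 78.7 CPM), Adamts3 was called higher in hypertrophic ones (9.05 and 16.1 CPM), and none was called in the other 2 classes. Only 3 to 6 of the 7 had 50 UMIs in a class. Of all tested genes, 2.68% were called lower in chondrocyte-like cells and 7.17% higher in hypertrophic ones.

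The hypoxia response list, 15 genes induced by low oxygen such as Slc2a1 (glucose transporter) and Ero1l (ER oxidase), had no gene called higher in any of the 4 skeletal classes. It had 8 of 15 called lower in chondrocyte-like cells (median -0.82), 7 of 15 in hypertrophic ones (median -0.52), 9 of 14 with 50 UMIs in stromal-like cells (median over 15 of -0.63) and 3 of 14 in osteoblast- or osteocyte-like cells (median over 15 of -0.22). Over all tested genes 2.68%, 3.88%, 6.39% and 4.65% were called lower in these classes. In chondrocyte-like cells the prolyl hydroxylase of the hypoxia factor itself, Egln3, was at 26.7 and 5.31 CPM (-1.62). In hypertrophic ones Ero1l (81.7 and 31.6 CPM), the peptide hormone Adm (98.9 and 39.1 CPM) and Slc2a1 (463 and 196 CPM) had log2 ratios of -1.24, -1.24 and -1.22. In stromal-like cells Ankrd37 was at -1.71, Ero1l and Slc2a1 at -1.35, and Pfkfb3, a regulator of glycolysis, at -1.22. Like the medians of this list, P4ha1 and P4ha2 were below control in chondrocyte-like, hypertrophic and osteoblast- or osteocyte-like cells. Both were above control in stromal-like cells, where the list was lower too. There P4ha2 was at -0.38 when cells needed at least 500 genes. The part of the hypoxia response in the enzyme values was not tested. The core shown above for P4ha1, P4ha2, P4hb and Serpinh1 was in the windows of 11 of the 13 list genes that had one. It was also in 6 of 7 windows of the folding and export list, of which no gene was called, in 4 of 11 of the general folding list of the endoplasmic reticulum and in 1 of 8 of the cell cycle list.

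The general folding genes of the endoplasmic reticulum, such as Hspa5 and Pdia4, had 1 of 12 called lower in chondrocyte-like cells, where 2.68% of all tested genes were. They had 2 of 12 called higher in hypertrophic ones, where 7.17% of all tested genes were. In osteoblast- or osteocyte-like cells 2 of 12 were called lower, Sdf2l1 (18.5 and 7.44 CPM) and Manf (243 and 151 CPM), where 4.65% of all tested genes were. Of 8 cell cycle genes, 7 were called lower in GC chondrocyte-like cells, led by Top2a (35.6 and 6.25 CPM, -1.85), Mki67 (-1.72) and Ube2c (-1.61). The share of all tested genes called lower in that class was 2.68%. The part of cell division in the chondrocyte-like values of the enzymes was not tested.

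**Figure D5:**
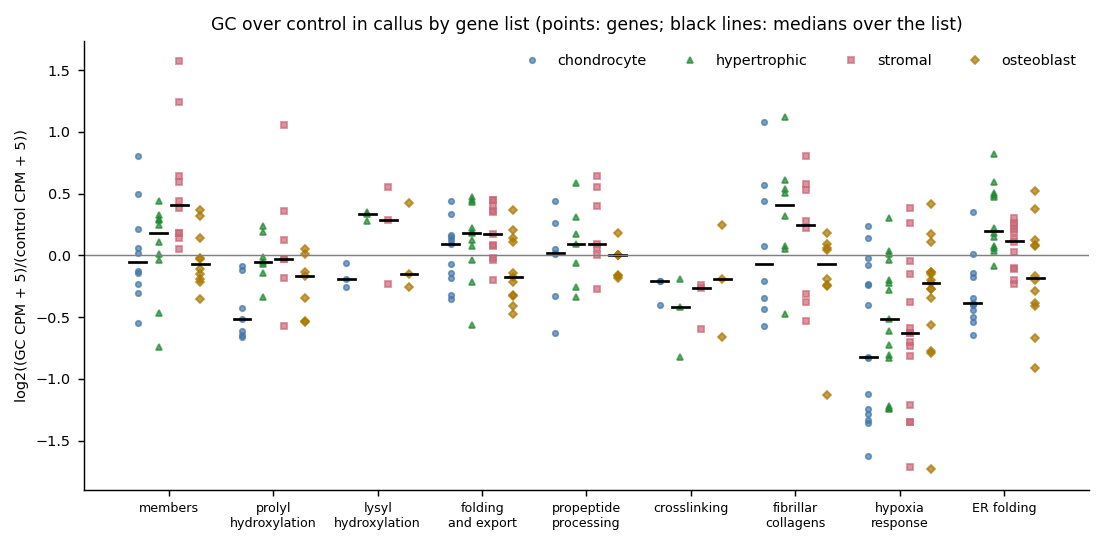
log2 ratio of GC over control (y axis) of each gene of the enzyme set and the other pathway lists (x axis) in callus classes, 1 point per gene with black lines for list medians. The hypoxia response medians lie below 0 in all 4 skeletal classes (-0.82 to -0.22), and the enzyme medians between -0.07 and 0.41.

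Enzyme RNA was also set beside fibrillar collagen RNA, which is only part of the substrate. The 8 fibrillar collagen genes summed to 87592 CPM in control and 71939 CPM in GC chondrocyte-like cells, and the 10 enzymes to 61.0 and 77.7 UMIs per 1000 collagen UMIs. In stromal-like cells the collagens were at 60049 and 71384 CPM and the enzymes at 69.7 and 80.8 per 1000. Osteoblast- or osteocyte-like cells, with the most fibrillar collagen RNA (158283 and 162729 CPM), had the fewest enzyme UMIs per 1000 (34.3 and 33.2). Hypertrophic chondrocyte-like cells, with the least fibrillar collagen RNA of the 4 (28906 and 27633 CPM), had the most (95.5 and 109). Col10a1, which is not fibrillar and was among the leading genes of hypertrophic clusters 2.1 and 2.2, was not counted. The ratio is therefore not one of enzyme to all collagen. For Lox alone the ratio was 7.40 and 15.8 per 1000 in chondrocyte-like, 6.54 and 13.1 in stromal-like, 4.93 and 5.97 in osteoblast- or osteocyte-like, and 28.7 and 32.4 in hypertrophic cells. For P4ha1 it was 5.41 and 4.48 in chondrocyte-like, 8.36 and 5.17 in hypertrophic, 4.15 and 3.98 in stromal-like, and 2.37 and 1.80 in osteoblast- or osteocyte-like cells. The collagen in question was not the same in both libraries: Col1a1 was called higher in GC chondrocyte-like cells (3620 and 7640 CPM, 1.08) and hypertrophic ones (1376 and 2991 CPM, 1.12), and Col5a1 in stromal-like cells (1078 and 1889 CPM, 0.81), while Col2a1 was called lower in osteoblast- or osteocyte-like cells (-1.13). Beside these, the 12 osteoblast markers, which include Col1a1, summed to 16703 and 28490 CPM in chondrocyte-like cells and the 14 chondrocyte markers to 103168 and 73423 CPM. The part of cell composition in the enzyme values was not tested.

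In trabecular bone the skeletal source was a single cluster of stromal-like cells, 13 in control and 35 in GC, led by Dcn, Col1a1 and Col1a2. A minimum of 10 cells, set after seeing the data, let it be compared. These cells held 0.346% of control and 0.658% of GC UMIs, but 92.3% and 94.1% of the UMIs of Serpinh1 and 96.2% and 96.7% of those of Lox. By contrast they held 0.96% and 1.27% of those of P4hb, whose highest hematopoietic level in control was in mast cell- or basophil-like cells (256 CPM). Lox had no UMI in 10 of 11 hematopoietic classes of control trabecular bone, which allows from 0.382 to 12.4 CPM by class size, and it was at 0.417 CPM in monocyte-like cells.

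Comparison of the 2 trabecular libraries rested on few UMIs. Plod2 was called higher, from 9 UMIs (75.6 CPM) in control to 56 UMIs (224 CPM) in GC (1.51, 0.51 to 2.69), and Lox from 25 UMIs (210 CPM) to 87 UMIs (348 CPM; 0.72, 0.07 to 1.41), where 15.1% of 1074 tested genes were called higher. The Plod2 difference was -0.03 when cells with over 5% mitochondrial UMIs were left out. Serpinh1 was at 1100 and 769 CPM (-0.51, -0.84 to -0.18), Bmp1 at 185 and 164 CPM (-0.17) and P4hb at 269 and 196 CPM (-0.44). The other 5 genes had under 50 UMIs in all. The median over the 10 was -0.33 (-1.01 to 0.64) against -0.13 over all tested genes. Markers of other cells moved with the library: the 8 mature neutrophil markers summed to 2343 CPM in control and 27218 CPM in GC stromal-like cells, the 7 erythroblast markers to 1293 and 22572 CPM, and the 13 stromal markers to 28195 and 17806 CPM. Col3a1, a stromal marker, was at 6465 and 272 CPM, and Col2a1 and Col11a2 were listed at 0 in control and at 224 and 220 CPM in GC. Their part in the enzyme values was not tested.

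Stromal-like cells of callus had more of most of these enzymes than those of trabecular bone. In control, 6 of the 10 were called higher in callus, where 31.0% of 5996 tested genes were: Plod2 at 579 against 75.6 CPM (2.86, 1.94 to 3.98), P4ha2 at 165 against 33.6 CPM (2.14), P4ha1 at 249 against 118 CPM (1.05), Lox at 393 against 210 CPM (0.89), Loxl2 at 194 against 109 CPM (0.80) and Serpinh1 at 1842 against 1100 CPM (0.74). P4hb, Plod1, Loxl3 and Bmp1 were not called in control, and Bmp1, at 165 CPM in callus, stood below its trabecular value given above. The control trabecular values of P4ha2, Plod2, Loxl2 and P4ha1 rested on 4, 9, 13 and 14 UMIs. Those of Lox and Serpinh1 rested on 25 and 131. The UMI minimum for a call was summed over both tissues. In control, stromal-like cells held 2376498 UMIs in callus and 119101 in trabecular bone. Genes could thus pass on callus UMIs alone, so the called counts and the shares of tested genes favor genes high in callus. The median over the 10 was 0.77 (with a lower bound of 0.18) against 0.12 over all tested genes. In GC, 9 of the 10 were called higher in callus (35.4% of 4845 tested genes were), Bmp1 being the exception (0.15, -0.32 to 0.65). Loxl2 was at 588 against 28.0 CPM there, the trabecular value resting on 7 UMIs. Those of P4ha2 and Plod1 also rested on 7 each, and that of Loxl3 on 9. The other genes called higher had from 35 (P4ha1) to 192 trabecular UMIs (Serpinh1). The tissues were also clustered apart and carried different amounts of other cells' markers, so tissue and library cannot be told apart.

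Genes whose level ran most closely with each enzyme were found over 36 callus profiles (a class in a library), among 8016 genes with at least 50 CPM in a profile. These correlations are descriptions, since the profiles share libraries and free RNA. Serpinh1 ran with Sparc (Pearson r 0.98), Gpx7 and Maged2, and Bmp1 with Lmo7 (0.95), Serpinh1 (0.94) and Gpx7. P4ha1 ran with Ugdh (0.95), 1810055G02Rik and Nupr1, and P4ha2 with Cdkn1c (0.95), Col6a1 and Fgfr3. P4hb had the loosest partners, Rab2a (0.85), Vkorc1 and Rab31, and Plod1 had Cd276 (0.91), Rab13 and Apbb2. Plod2 ran with Cacna2d1 (0.96), Sdk2 and Col6a2. Lox had Sdk2 (0.95), Dcn and Pdzrn3, Loxl2 had Tmem45a (0.93), Hoxc10 and Plod2, and Loxl3 had Col6a2 (0.93), Ecrg4 and P4ha2. Between the enzymes r ran from 0.53 (Plod1 and Lox) to 0.94 (Serpinh1 and Bmp1).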

How the data were processed

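Single-cell libraries of callus and trabecular bone were analysed, 1 per tissue and treatment. The authors deposited unnormalized counts of UMIs per gene and barcode, made with 10x Genomics chemistry; the matrix headers name Cell Ranger 4, and the submitters' processing notes list Cell Ranger 5.0.1, Seurat 3.2.0 and the build mm10. The callus matrix of the GC group lists 7762 barcodes of at least 500 UMIs, and the others list all 6794880, empty droplets included. Total counts of control and GC were 95852254 and 64388215 in callus, and 41239842 and 45876714 in trabecular bone. The authors' cell labels were not used here, and neither were the Supplemental Methods.

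In the full matrices a barcode was a cell above 10% of the 99th percentile of the 3000 largest, or with at least 500 UMIs and a profile departing from that of the barcodes ranked 45001 to 90000 (Monte Carlo multinomial test, 10000 simulations, Benjamini-Hochberg threshold 0.01). All 7762 listed barcodes of GC callus were taken as cells before the filters, so control and GC callus were called by different rules. The alternative call at 1000 UMIs left the GC callus call unchanged. Filters removed cells under 200 genes or over 10% mitochondrial UMIs, and the highest doublet scores (0.8% per 1000 cells). Clustering joined both libraries of each tissue (2000 variable genes without the members, 30 components, 15 neighbors, Leiden resolution 1, division of mixed clusters at 0.5) and named by at least 3 markers at 2-fold over the median of the other clusters. Classes needed 15 cells per library. The monocyte-like and conventional dendritic-like cells of callus were not compared between conditions, since clusters of them led with markers of another class.

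UMIs were summed per class as CPM. Intervals at 95% are exact Poisson for levels, exact conditional for ratios and Clopper-Pearson for shares. The bounds beside a median over the 10 enzymes are the medians of the 10 per-gene bounds, not a 95% interval of the median. All of them cover counting error only. Limits for a gene without UMIs stand for 3 counts. With 1 library per group no p-value was computed. On simulated counts, changes of 1 log2 unit were called in 54.0% of genes for chondrocyte-like cells (13396 genes) and 85.3% for stromal-like cells (7306 genes). Unchanged genes were called in 0% and 1.31%, and in 6.18% for trabecular stromal-like cells. The simulated counts held counting error alone, so these shares do not cover variation between libraries. The genes, lists and markers were chosen with earlier results of these data known. Beside the 10 enzymes, the text names at most the 4 list genes with the largest called ratios per class and the 3 genes most like each enzyme; others were chosen after their values were seen. Clustering ran in Python 3.11.15 with leidenalg 0.10.2 on igraph 0.11.9, scikit-learn 1.9.0 and numba 0.67.0, statistics with scipy 1.17.1, tables with pandas 2.3.3 and numpy 2.4.6, and plots with matplotlib 3.10.9.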

Additional observations from a re-analysis of the deposited data

Results flagged for a closer look

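Several enzymes differed between GC and control in opposite directions in different skeletal classes, with at least 50 UMIs and both counting intervals clear of 0. The difference between classes was not tested, because each class had 1 library per condition. P4ha1 had log2 ratios of -0.55 in chondrocyte-like, -0.74 in hypertrophic chondrocyte-like and -0.35 in osteoblast- or osteocyte-like cells of callus, and 0.18 in stromal-like cells. P4ha2 was at -0.23 and -0.47 in the chondrocyte-like and hypertrophic classes, and at 0.44 in stromal-like cells. P4hb was at -0.31 in chondrocyte-like cells, 0.30 in hypertrophic ones and 0.18 in stromal-like cells. Plod1 was at -0.13, 0.28 and 0.38 in the same order, and Plod2 at -0.15, 0.25 and 0.64, with 1.51 in the stromal-like cells of trabecular bone. Serpinh1 was at 0.019 in chondrocyte-like and 0.33 in hypertrophic cells of callus, and at -0.51 in stromal-like cells of trabecular bone. Not all of these signs were stable: Serpinh1 in chondrocyte-like cells kept its sign under 13 of 18 alternative settings (-0.14 to 0.45) and Plod2 there under 16. Plod1 in chondrocyte-like cells, Plod2 and Serpinh1 in hypertrophic ones, and P4ha2 and Plod1 in callus stromal-like cells kept theirs under 17 of 18. P4hb kept its sign in these 3 classes, but its size did not hold. It was at -0.063 within chondrocyte-like clusters and at 0.014 in hypertrophic cells with clusters named against the mean. In stromal-like cells it was at 0.0074 with at least 500 genes per cell.

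The callus cells left unnamed by the naming rules, 273 in control and 601 in GC, entered none of the comparisons and held enzyme RNA. They sat in different clusters in the libraries. In control 112 were in cluster 11.1, whose leading score was for a neutrophil list, and 103 in cluster 16. In GC 164, 99, 96 and 62 were in clusters 9.0, 9.1, 9.2 and 1.4, which held 0, 5, 3 and 0 control cells. The levels of the libraries are therefore given side by side and not compared. In each of these GC clusters the chondrocyte list scored highest, with 14 of 14 markers passing. They stayed unnamed because markers of another class led as often or more. Control and GC values were 1245 and 2217 CPM for Serpinh1, 398 and 987 CPM for Lox, and 485 and 822 CPM for Plod2. P4hb was at 291 and 382 CPM, P4ha1 at 249 and 311 CPM, and P4ha2 at 154 and 251 CPM. Loxl2 was at 156 and 311 CPM, Loxl3 at 55.4 and 118 CPM, and Plod1 at 60.1 and 89.8 CPM. These cells were 4.07% of control and 8.72% of GC callus cells, in 9 clusters.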

How the results depend on the processing

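Of 870 values of the 10 enzymes under the alternative settings, over 50 results, 806 kept their sign. Those with a pseudocount of 1 or 20 CPM kept it by construction. Called differences reversed in 3 values. Loxl3 in callus stromal-like cells did so at Leiden resolution 0.5 (-0.29) and with each library clustered alone (-0.42). Plod2 in trabecular stromal-like cells did so at 5% mitochondrial UMIs (-0.031). Lox in callus stromal-like cells stayed past 1.5-fold under all 18 alternatives (0.66 to 1.57), and Loxl2 under 17 (0.29 with at least 500 genes per cell, to 1.63). In chondrocyte-like cells Lox ranged from 0.43 to 0.90 and P4ha1 from -0.63 to -0.23, and in hypertrophic cells P4ha1 ranged from -1.22 to -0.46.

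The median over the 10 enzymes moved outside the bounds given with it under some settings, and the cause was not tested. For chondrocyte-like cells it was 0.073 with cells called at 1000 UMIs, -0.13 at 5% mitochondrial UMIs, -0.11 at Leiden resolution 2, 0.063 with clusters named against the mean, 0.13 with cells thinned to 1000 UMIs, 0.00453 as a mean over cells, -0.00411 with the B cell-like level subtracted, -0.11 without clusters that came from 1 library, -0.089 in cells of at least 5000 UMIs and 0.041 within clusters, so it has no stable sign. For hypertrophic cells it was -0.043 with each library clustered alone and 0.023 with naming against the mean, and for osteoblast- or osteocyte-like cells 0.10 as a mean over cells. For stromal-like cells it was 0.054 with at least 500 genes, 0.14 at Leiden resolution 0.5, 0.80 at resolution 2 and 0.16 with each library clustered alone. With at least 500 genes the class held 44 control and 39 GC cells after clustering anew. Skeletal over hematopoietic cells gave 2.17 without doublet removal, 3.59 and 2.60 with pseudocounts of 1 and 20 CPM, and 4.83 with the B cell-like level subtracted. The value centred on the median gene was computed but left out for that comparison.

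The minimum of 10 trabecular cells, leaving out clusters of 1 library, the values within clusters and the limit of 5000 UMIs were chosen after seeing the data. No paired analysis was possible because each group has 1 library, which also leaves no replicate to leave out. Depth was limiting in trabecular stromal-like and callus endothelial-like cells, where 5 of the 10 enzymes had under 50 UMIs, and in trabecular hematopoietic classes, where 6 had 50 UMIs in no class.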
